A study of Mus musculus with 18 samples.

Results

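The Hox genes are 39 protein-coding genes of the mouse that lie in 4 clusters, and their RNA was examined here in 18 libraries of whole quadriceps muscle. They were taken by symbol, as every protein-coding gene with an exon length above 0 whose name is Hox, a cluster letter from a to d and a number, out of 31665 listed genes with an exon length above 0. Cluster A on chromosome 6 holds 11 of them, cluster B on chromosome 11 holds 10, cluster C on chromosome 15 holds 9 and cluster D on chromosome 2 holds 9.

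Hox genes encode homeodomain transcription factors that give cells along the body axis and along the limb their position. The number in a gene's name is its paralogue group: low numbers lie toward one end of each cluster and act nearer the head, and high numbers act nearer the tail and, in the limb, nearer the digits. In mouse limb development the genes of paralogue group 10 pattern the segment of the thigh and upper arm, those of group 11 the next segment, and those of group 13 the foot and hand. Connective tissue and satellite cells of adult muscle keep part of this positional code, so the Hox profile of a bulk muscle sample can differ with where along the body and limb it was taken.

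Each library came from 1 mouse. The mutant mice, called dyW, carry the Lama2tm1Eeng allele (B6.129S1(Cg)-Lama2tm1Eeng/J), a knock-out of laminin alpha 2 that is used as a mouse model of the human muscular dystrophy caused by loss of this laminin chain, and the labels call the mutants hemizygous. C57BL/6J mice served as wild type (WT). The cohort given the vehicle PBS or TD139, an inhibitor of galectin-3, held 3 dyW TD139, 3 dyW PBS, 2 WT TD139 and 3 WT PBS libraries, all with an age label of 3 weeks. The untreated cohort held 4 dyW and 3 WT libraries with an age label of 5 weeks. The collection protocol gives 5 weeks for every sample, and the dose, route and duration of TD139 were not given in the sources used here. Replicates are numbered within each group, and WT PBS replicate 1 is the animal labelled M20.

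Depth ranged from 15.8 M exon reads in dyW PBS replicate 1 to 45.2 M, and 97.97% to 98.39% of exon reads were unique. Lama2 RNA went with the genotype label in every library, at 0.545 to 1.10 RPKM (reads of a gene scaled by its exon length and by the mapped reads of the library) in dyW and 2.18 to 5.02 RPKM in WT libraries. The balance of Xist and Y-linked RNA went against the sex label in 8 of the 11 libraries of the PBS and TD139 cohort and in 0 of the 7 untreated libraries. Whether animals were exchanged within that cohort was not tested. Without those 8 libraries 1 dyW TD139, 2 dyW PBS and 0 WT libraries of that cohort are left. Summed myofibre markers stood at 38936 to 87343 RPKM in all 18 libraries, so each held muscle RNA.

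Paralogues resemble each other in the stretch that encodes the DNA-binding homeodomain, and the reads had to be told apart there. To show how far they differ, 60 bases inside the homeobox are given for a group 10 pair and a group 11 pair from GENCODE M21 transcripts, with bases that differ within the pair in capitals.
Hoxa10: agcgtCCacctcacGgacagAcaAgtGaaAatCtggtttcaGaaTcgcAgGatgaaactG
Hoxd10: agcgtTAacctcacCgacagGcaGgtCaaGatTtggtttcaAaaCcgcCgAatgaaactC
Hoxa11: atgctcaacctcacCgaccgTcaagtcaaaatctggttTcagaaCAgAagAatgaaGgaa
Hoxd11: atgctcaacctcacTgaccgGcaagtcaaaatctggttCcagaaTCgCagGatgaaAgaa
The group 10 pair differs at 13 of these 60 bases and the group 11 pair at 8. Over whole transcripts, 35 of the 39 members shared no stretch of 58 bases, the read length, with another member. The 4 that did were the pair Hoxc5 and Hoxc10 and the pair Hoxd3 and Hoxd4, and within each pair the annotated transcripts overlap. Exons of an opposite-strand gene lie over part of the exons of 10 members, among them 52.9% of Hoxb3 and 27.3% of Hoxb2 (both under Hoxb3os), 35.0% of Hoxa11 (Hoxa11os) and 20.4% of Hoxa7 (Hoxaas3). The kit kept strand, but whether the counting used it was not given, so RNA of these members and of their antisense partners may be mixed.

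The promoters of Hoxa11, Hoxa13 and Hoxd10 are shown because they had the highest ratios of 1 animal, described below, to the median of the other 17 libraries, among members whose median there was above 0. Each is 250 bases before to 50 bases after the gene's start in RefSeq GRCm38.p6, and CG dinucleotides are in capitals.
Hoxa11, chr6:52245761-52246060, minus strand: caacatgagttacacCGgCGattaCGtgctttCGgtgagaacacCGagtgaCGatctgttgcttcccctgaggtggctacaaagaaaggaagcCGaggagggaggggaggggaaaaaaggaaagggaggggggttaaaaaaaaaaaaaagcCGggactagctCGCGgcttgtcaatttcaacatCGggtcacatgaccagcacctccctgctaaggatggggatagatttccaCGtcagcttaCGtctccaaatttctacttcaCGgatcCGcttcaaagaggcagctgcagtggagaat
Hoxa13, chr6:52260831-52261130, minus strand: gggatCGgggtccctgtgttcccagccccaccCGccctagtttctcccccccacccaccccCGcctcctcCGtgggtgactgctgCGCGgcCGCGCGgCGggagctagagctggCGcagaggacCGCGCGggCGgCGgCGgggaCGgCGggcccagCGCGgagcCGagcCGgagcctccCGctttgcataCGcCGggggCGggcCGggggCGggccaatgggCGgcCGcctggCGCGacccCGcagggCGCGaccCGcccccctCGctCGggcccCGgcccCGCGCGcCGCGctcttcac
Hoxd10, chr2:74691641-74691940, plus strand: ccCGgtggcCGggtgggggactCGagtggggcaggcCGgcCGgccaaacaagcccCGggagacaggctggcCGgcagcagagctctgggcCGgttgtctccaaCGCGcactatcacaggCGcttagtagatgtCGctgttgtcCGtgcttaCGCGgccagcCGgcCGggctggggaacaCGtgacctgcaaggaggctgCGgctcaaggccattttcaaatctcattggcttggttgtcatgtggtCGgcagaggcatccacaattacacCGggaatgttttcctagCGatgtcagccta
These windows hold 15, 45 and 22 CG dinucleotides. The 24 promoter entries found for 22 members had a median of 14.5, against 7 in all 32851 promoters of that table, and 50% of the Hox promoters had an observed over expected CG ratio above 0.6, against 35.79% of all. The motif TGATNNAT, searched on both strands as a form of the site bound by PBX and HOX proteins together, occurred in 4 of the 24 (16.67%), those of Hoxa2, Hoxb1, Hoxb8 and 1 of 2 entries of Hoxd11, and in 8.846% of all promoters. It was in none of the 3 windows printed.

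A single gene of paralogue group 10, Hoxc10, dominated the Hox RNA of the quadriceps and made up 30.2% to 52.7% of the summed Hox RPKM of each library. Of the 39 members, 13 had a mean of at least 1 RPKM, 17 lay from 0.1 to under 1, and 9 lay under 0.1. Those 13 were 6 members of cluster C, 5 of cluster A and 2 of cluster D, and no member of cluster B reached 1 RPKM. A read was found in every library for 30 members, in no library for Hoxb1 and Hoxd12, and in part of the libraries for the other 7. Group 10 carried a median 46.4% of the sum, groups 4 to 8 carried 34.4%, group 9 carried 12.7%, group 11 carried 3.28%, groups 1 to 3 carried 2.67%, and groups 12 and 13 carried 0.261%. RNA of every kind of cell in the muscle is pooled in such libraries, and fewer cells of a type and less RNA per cell cannot be told apart.

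**Figure D1:**
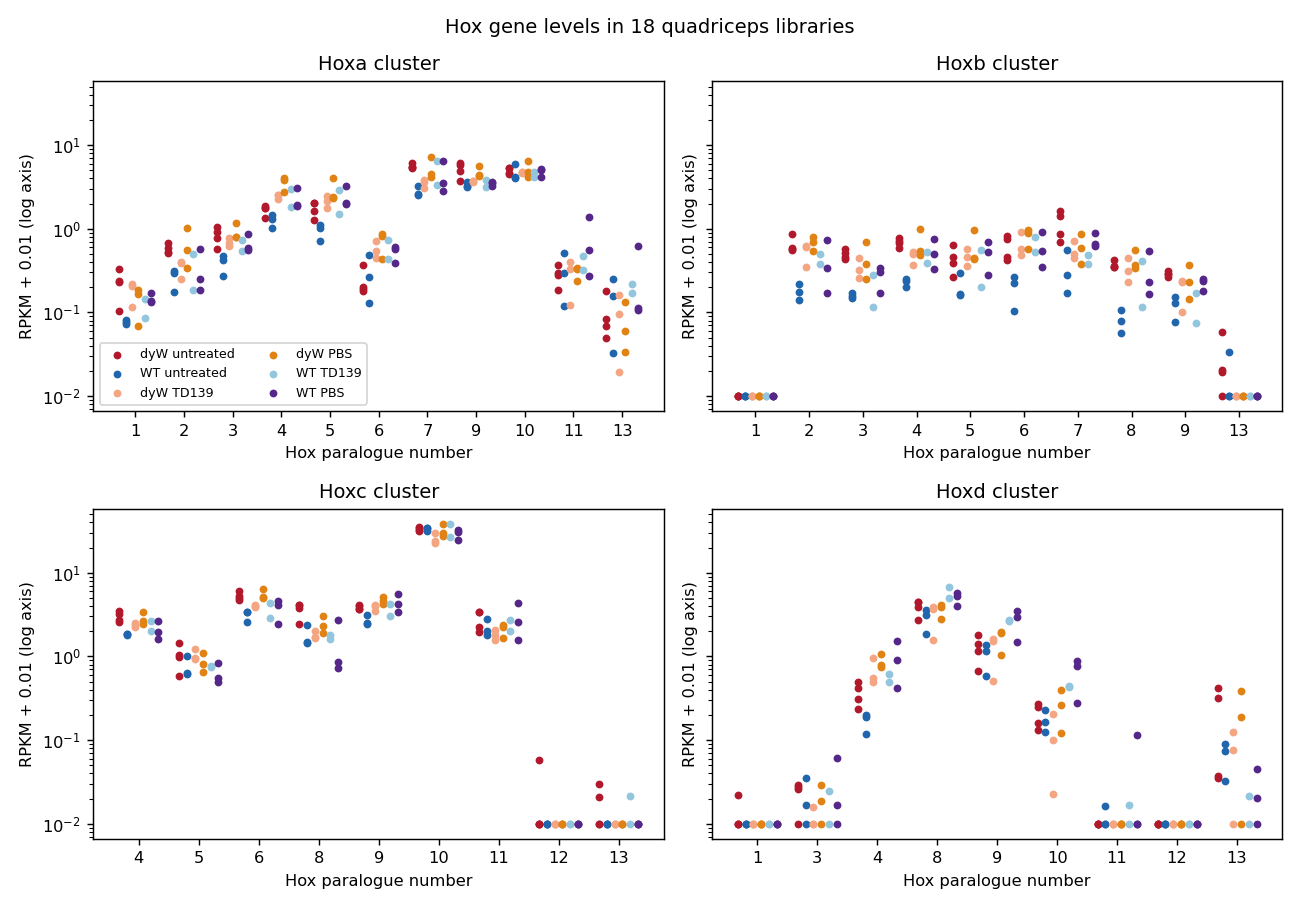
RPKM + 0.01 of the 39 Hox genes on a log axis, by cluster (panels) and paralogue number (x axis); each point is 1 of 18 libraries, coloured by group. Hoxc10 sits above all other members at 22.4 to 38.5 RPKM, and the members numbered 12 and 13 lie near the bottom.

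Hoxc10 (chr15:102966796-102971893 in mm10), which acts in lumbar motor neurons and in hindlimb patterning, stood at 24.1, 22.4 and 29.8 RPKM in dyW TD139, 27.2, 38.4 and 29.6 RPKM in dyW PBS, 38.5 and 26.9 RPKM in WT TD139 and 24.9, 30.4 and 32.4 RPKM in WT PBS libraries. In the untreated cohort it stood at 32.4, 31.4, 34.5 and 35.1 RPKM in untreated dyW and 31.2, 34.5 and 33.9 RPKM in untreated WT libraries. The groups overlapped within the PBS and TD139 cohort, where dyW TD139 held the lowest library and WT TD139 the highest. Its cluster A paralogue Hoxa10 (chr6:52231197-52240854), a gene of thigh and lumbar patterning, stood at 4.79, 4.64 and 4.81 RPKM in dyW TD139, 4.12, 6.40 and 4.70 RPKM in dyW PBS, 4.11 and 4.70 RPKM in WT TD139 and 4.97, 4.10 and 5.11 RPKM in WT PBS libraries. In the untreated cohort Hoxa10 stood at 4.66, 4.44, 5.26 and 5.34 RPKM in untreated dyW and 5.88, 4.02 and 4.12 RPKM in untreated WT libraries. All 18 values of Hoxa10 lay between 4.02 and 6.40 RPKM, the narrowest range in proportion among the 13 members. The third gene of the group, Hoxd10, was far lower, at 0.0129 to 0.863 RPKM.

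Hoxc11, a neighbour of Hoxc10 in the cluster that is active in the mouse hindlimb, stood at 1.55, 1.81 and 2.07 RPKM in dyW TD139, 2.23, 2.35 and 1.64 RPKM in dyW PBS, 2.71 and 1.98 RPKM in WT TD139 and 4.32, 2.58 and 1.56 RPKM in WT PBS libraries. It stood at 2.21, 1.93, 3.40 and 3.42 RPKM in untreated dyW and 1.81, 2.79 and 2.02 RPKM in untreated WT libraries. WT PBS replicate 1 was above all other libraries. The other members of group 11 were Hoxa11, at 0.111 to 1.38 RPKM, and Hoxd11, at 0 to 0.105 RPKM. Among the members numbered 12 and 13, Hoxa13 reached 0.613 RPKM, Hoxd13 reached 0.412 RPKM, and Hoxb13, Hoxc12, Hoxc13 and Hoxd12 stayed between 0 and 0.0477 RPKM.

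Group 9 genes, which act in the lower trunk and lumbar region, held 3 of the 13 members. Hoxa9 stood at 3.70, 3.65 and 3.66 RPKM in dyW TD139, 5.64, 4.33 and 4.21 RPKM in dyW PBS, 3.79 and 3.12 RPKM in WT TD139 and 3.22, 3.52 and 3.65 RPKM in WT PBS libraries. It stood at 4.88, 3.74, 6.05 and 5.83 RPKM in untreated dyW and 3.64, 3.27 and 3.12 RPKM in untreated WT libraries, with the untreated WT libraries all below the untreated dyW ones on this scale. Hoxc9, which marks thoracic motor neurons, stood at 4.08, 3.52 and 3.97 RPKM in dyW TD139, 5.07, 4.60 and 4.20 RPKM in dyW PBS, 4.26 and 3.05 RPKM in WT TD139 and 3.34, 5.51 and 4.17 RPKM in WT PBS libraries. Its untreated values were 3.65, 3.71, 4.05 and 4.07 RPKM in untreated dyW and 3.10, 2.52 and 2.44 RPKM in untreated WT libraries, again without overlap between the genotypes on the RPKM scale. With RPKM scaled by TMM, which corrects for library composition, the untreated genotypes overlapped for both Hoxa9 and Hoxc9. Hoxa9 then ranged from 3.26 to 5.097 in untreated dyW and from 4.12 to 4.401 in untreated WT libraries. Hoxc9 ranged from 3.204 to 3.55 and from 3.23 to 3.62. Hoxd9 stood at 0.503, 1.51 and 1.61 RPKM in dyW TD139, 1.95, 1.91 and 1.04 RPKM in dyW PBS, 2.71 and 2.64 RPKM in WT TD139 and 3.51, 1.47 and 2.93 RPKM in WT PBS libraries. It stood at 1.38, 0.655, 1.15 and 1.78 RPKM in untreated dyW and 0.566, 1.15 and 1.34 RPKM in untreated WT libraries. Hoxd9 spanned a wider range in proportion than Hoxa9 and Hoxc9, with dyW TD139 replicate 1 lowest and WT PBS replicate 1 highest on the RPKM scale. With TMM-scaled RPKM, WT PBS replicate 3 was highest for Hoxd9, at 3.82 against 3.76 in replicate 1.

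Among groups 7 and 8, Hoxa7, a gene of thoracic patterning, stood at 3.82, 3.06 and 3.59 RPKM in dyW TD139, 7.16, 4.51 and 4.18 RPKM in dyW PBS, 6.37 and 3.36 RPKM in WT TD139 and 2.85, 6.45 and 3.47 RPKM in WT PBS libraries. It stood at 5.28, 5.43, 6.10 and 5.44 RPKM in untreated dyW and 3.27, 2.56 and 2.53 RPKM in untreated WT libraries, and the untreated genotypes did not overlap. Hoxc8, a thoracic gene that also acts in brachial motor neurons, stood at 2.02, 1.69 and 1.66 RPKM in dyW TD139, 3.03, 2.29 and 1.89 RPKM in dyW PBS, 1.81 and 1.60 RPKM in WT TD139 and 0.713, 2.69 and 0.858 RPKM in WT PBS libraries. Its untreated values were 4.09, 4.08, 3.75 and 2.40 RPKM in untreated dyW and 2.38, 1.45 and 1.47 RPKM in untreated WT libraries. The lowest 2 of 18 values of Hoxc8 were both in WT PBS libraries, replicates 1 and 3. Hoxd8 stood at 1.57, 3.67 and 3.94 RPKM in dyW TD139, 3.88, 4.07 and 2.76 RPKM in dyW PBS, 4.99 and 6.68 RPKM in WT TD139 and 5.75, 3.98 and 5.22 RPKM in WT PBS libraries. It stood at 4.47, 2.70, 3.90 and 4.45 RPKM in untreated dyW and 1.83, 3.60 and 3.08 RPKM in untreated WT libraries, and every WT TD139 library was above every dyW TD139 library.

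In groups 4 to 6, Hoxc6, a gene of brachial and upper thoracic identity, stood at 3.84, 4.03 and 4.16 RPKM in dyW TD139, 6.37, 5.15 and 5.02 RPKM in dyW PBS, 4.29 and 2.89 RPKM in WT TD139 and 2.45, 4.60 and 4.14 RPKM in WT PBS libraries. It stood at 4.70, 5.01, 5.29 and 6.10 RPKM in untreated dyW and 3.42, 2.56 and 3.37 RPKM in untreated WT libraries. WT PBS replicate 1 was the lowest of all 18. Hoxc4 stood at 2.23, 2.34 and 2.48 RPKM in dyW TD139, 3.42, 2.44 and 2.61 RPKM in dyW PBS, 2.62 and 2.02 RPKM in WT TD139 and 1.59, 2.64 and 1.95 RPKM in WT PBS libraries. It stood at 2.69, 2.57, 3.44 and 3.22 RPKM in untreated dyW and 1.86, 1.82 and 1.78 RPKM in untreated WT libraries. The untreated dyW values were above the untreated WT values on the RPKM scale, which is not corrected for library composition. With RPKM scaled by TMM, which makes that correction, they overlapped (2.24 to 2.81 in dyW and 2.17 to 2.46 in WT). WT PBS replicate 1 was lowest of all. Hoxa4, a gene of neck-level patterning, stood at 2.49, 2.52 and 2.28 RPKM in dyW TD139, 3.85, 2.73 and 4.06 RPKM in dyW PBS, 3.01 and 1.80 RPKM in WT TD139 and 1.93, 1.86 and 3.06 RPKM in WT PBS libraries. It stood at 1.32, 1.77, 1.84 and 1.78 RPKM in untreated dyW and 1.46, 1.02 and 1.29 RPKM in untreated WT libraries. Every PBS and TD139 value was above every untreated WT value. Hoxa5, also needed for lung development, stood at 1.74, 2.11 and 2.45 RPKM in dyW TD139, 4.01, 2.31 and 2.40 RPKM in dyW PBS, 2.86 and 1.49 RPKM in WT TD139 and 2.05, 3.21 and 1.99 RPKM in WT PBS libraries. It stood at 1.64, 1.27, 2.02 and 2.04 RPKM in untreated dyW and 1.00, 0.701 and 1.09 RPKM in untreated WT libraries. The untreated WT libraries were the 3 lowest of all 18 on the RPKM scale. With TMM-scaled RPKM, untreated dyW replicate 2, at 1.11, was below untreated WT replicates 1 and 3, at 1.17 and 1.44.

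Libraries were compared across the 33 members with at least 10 reads in all, by Pearson's r of log2(RPKM + 0.01). The 19 pairs of libraries from the same group had a median r of 0.951, ranging from 0.859 to 0.984, and the 134 pairs from different groups had a median of 0.939, ranging from 0.735 to 0.983. The medians were close to each other. These values are descriptions, since the members share their clusters and the steep order of levels, and each library enters 17 pairs. For 17 libraries the median r with the other libraries lay between 0.911 and 0.959. WT PBS replicate 1 stood apart at 0.837, with a Spearman's rho of 0.825. Its highest r with any library was 0.925, with WT TD139 replicate 1, and its lowest was 0.735, with untreated dyW replicate 3. The depth of WT PBS replicate 1, 35.2 M exon reads, was within the range of the others.

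**Figure D2:**
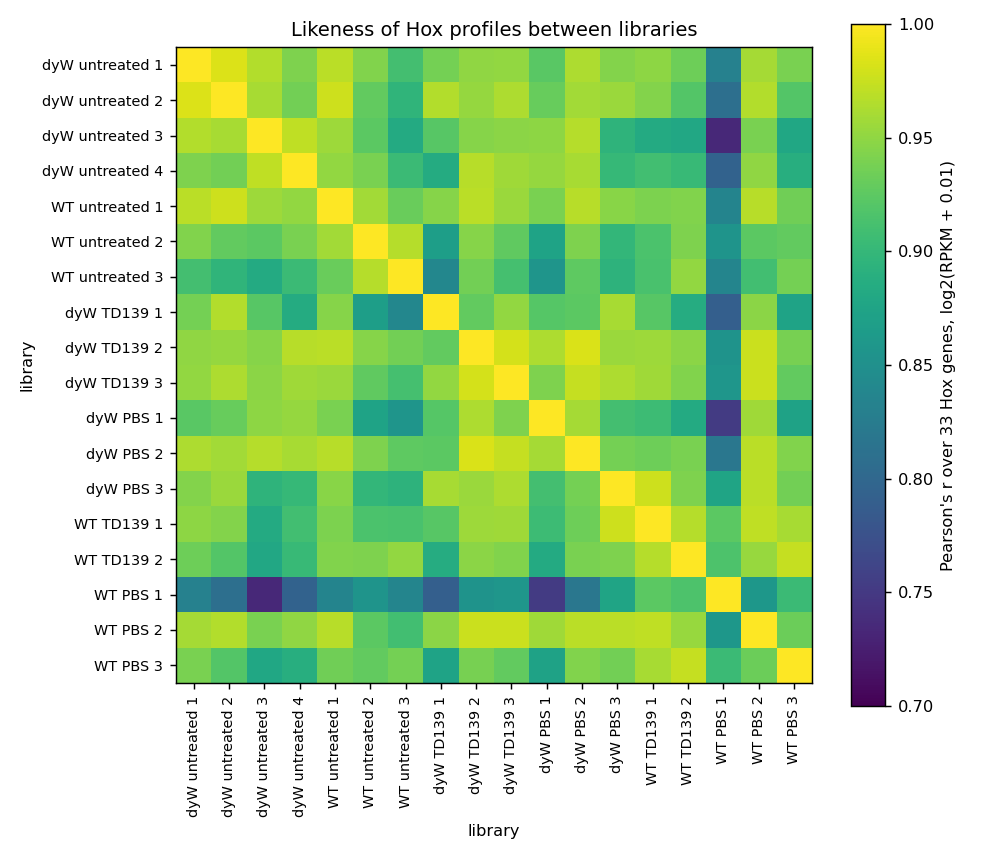
Pearson's r between each pair of the 18 libraries over 33 Hox genes on the log2(RPKM + 0.01) scale; each cell is 1 pair, and the colour runs from 0.7 to 1. The row and column of WT PBS replicate 1 are the darkest, at 0.735 to 0.925.

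WT PBS replicate 1 was the highest of 18 libraries for 7 of the 33 members, namely Hoxa11, Hoxa13, Hoxc11, Hoxd4, Hoxd9, Hoxd10 and Hoxd11, and the lowest for 4, namely Hoxc4, Hoxc5, Hoxc6 and Hoxc8. With the exception of Hoxd4, the members at the high extreme are numbered 9 to 13, and those at the low extreme are numbered 4 to 8. These ranks are on the RPKM scale. With TMM-scaled RPKM, WT PBS replicate 3 was above replicate 1 for Hoxd9 (3.82 against 3.76) and Hoxd10 (0.987 against 0.925). The other highs and the 4 lows of replicate 1 held, and it was then lowest for Hoxa2, Hoxa7 and Hoxb2 as well. Hoxa13, a gene of the foot and hand, stood at 0.613 RPKM from 58 reads in WT PBS replicate 1, against a median of 0.0975 RPKM and at most 24 reads in any of the other 17 libraries, a ratio of 6.29. Hoxa11, a gene of the lower leg and forearm segment, stood at 1.38 RPKM from 121 reads, against a median of 0.308 RPKM and at most 49 reads elsewhere, a ratio of 4.48. Its mates WT PBS replicates 2 and 3 had 0.259 and 0.545 RPKM. For both genes this library lay beyond the whole range of the others.

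Hoxd10, a gene of lumbar and hindlimb identity, stood at 0.863 RPKM in WT PBS replicate 1, 3.96 times the median of 0.218 RPKM elsewhere. WT PBS replicate 3 was close behind at 0.756 RPKM, and above it with TMM-scaled RPKM (0.987 against 0.925). Hoxd4, which acts in the hindbrain and neck, stood at 1.53 RPKM, 3.13 times the median. Exons of same-strand genes, Hoxd3 among them, lie over 52.3% of its annotated exon bases, and 43.8% of its reads in all libraries were unique. Hoxd9 was 2.39 times and Hoxc11 2.09 times the median of the others. Hoxd11, a partner of Hoxa11 in the same limb segment, had 17 reads in WT PBS replicate 1 and 2 reads over the other 17 libraries together. In the other direction, Hoxc8 stood at 0.352 times, Hoxc6 at 0.571 times and Hoxb2 at 0.290 times the median of the others. Hoxd13 had 0 reads there, which allows up to 3 by counting error, so not every gene of the far end was higher.

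**Figure D3:**
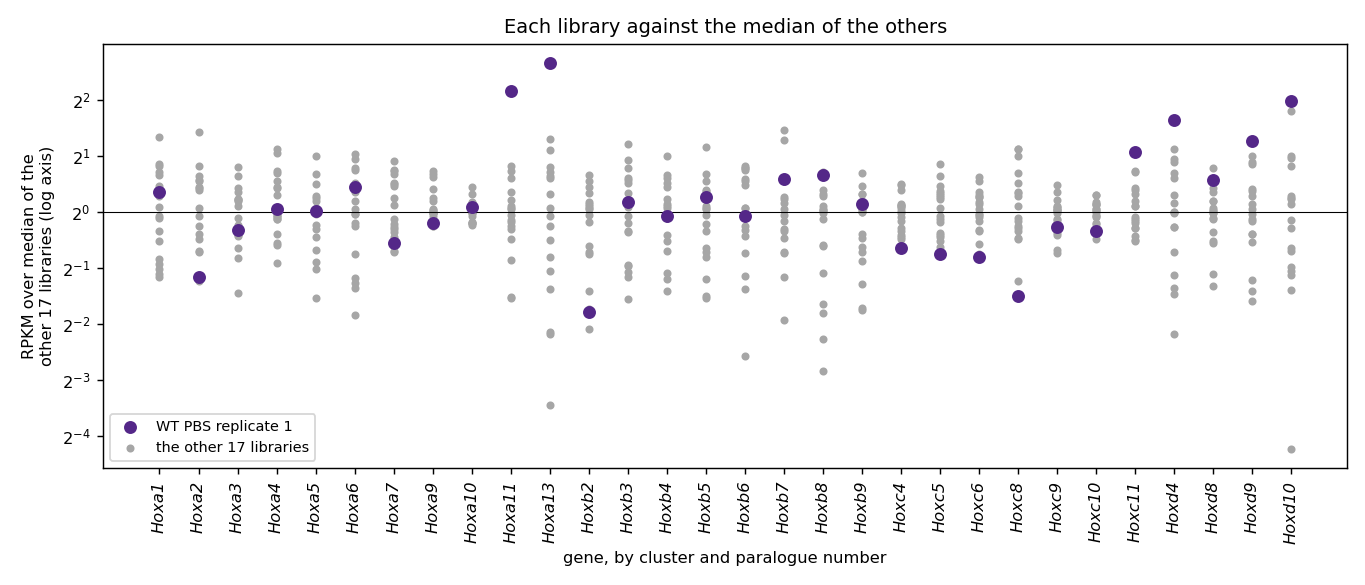
RPKM of 30 Hox genes in each library over the median of the other 17 libraries (log axis), with WT PBS replicate 1 as large points and the other libraries in grey. The large points for Hoxa11 and Hoxa13 lie above all others at 4.48 and 6.29, and that for Hoxc8, at 0.352, lies below all other libraries for that gene.

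Other RNAs also set WT PBS replicate 1 apart. Hotair, a noncoding RNA of the far end of cluster C, stood at 1.28, 0.197 and 0.292 RPKM in WT PBS replicates 1, 2 and 3 and was at most 0.511 RPKM in any other group. Hoxa11os stood at 0.773 RPKM and Hottip, a noncoding RNA beyond Hoxa13, at 0.0726 RPKM, each the highest of 18. Hand2, a regulator of the posterior limb bud that is also active in sympathetic neurons, stood at 0.256 RPKM, against at most 0.0120 elsewhere, and Tbx3, another limb regulator, stood at 3.52 RPKM, against at most 1.83. Tissue markers moved as well: the slow myosin gene Myh7 stood at 442, 0.0638 and 0.0207 RPKM in WT PBS replicates 1, 2 and 3. The 6 Schwann cell markers summed to 591 RPKM in replicate 1 and to 9.1 to 126 RPKM in the other 17 libraries, and the 8 myofibre markers summed to 54358 RPKM, against 86310 and 87185 RPKM in its mates. The part of nerve, slow fibre or other tissue RNA in the Hox values was not tested. Myh7 was also high in untreated dyW replicates 3 and 4, at 236 and 291 RPKM. In those 2 libraries Hoxc11 stood at 3.40 and 3.42 RPKM, the next highest of 18 after WT PBS replicate 1 on that scale. With TMM-scaled RPKM it stood there at 2.69 and 2.99. Untreated WT replicate 2 (3.76), WT TD139 replicate 1 (3.54) and WT PBS replicate 2 (3.31) were then higher, with Myh7 at most 0.0734 RPKM. Hoxd13 stood at 0.307 and 0.412 RPKM in untreated dyW replicates 3 and 4. In the same 2 libraries Hoxa11 stood at 0.269 and 0.355 RPKM and Hoxa13 at 0.0398 and 0.170 RPKM. Hoxd9 stood at 1.15 and 1.78 RPKM and Hoxd10 at 0.122 and 0.260 RPKM. The values of these 4 genes were each within the range of the other libraries.

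Genes that distinguish the limbs were read beside the Hox genes. Pitx1, a determinant of hindlimb identity, stood at 0.0440, 0.143 and 0.213 RPKM in dyW TD139, 0.479, 0.671 and 0.164 RPKM in dyW PBS, 0.103 and 0.244 RPKM in WT TD139 and 0.531, 0.462 and 0.239 RPKM in WT PBS libraries. It stood at 0.125, 0.204, 0.528 and 0.493 RPKM in untreated dyW and 0.190, 0.188 and 0.102 RPKM in untreated WT libraries. The groups overlapped between genotypes and between TD139 and PBS, while every WT PBS library was above every untreated WT library. Tbx4, the hindlimb T-box gene, stood at 0.597, 0.559 and 0.868 RPKM in dyW TD139, 1.19, 1.04 and 0.750 RPKM in dyW PBS, 0.484 and 0.373 RPKM in WT TD139 and 1.22, 0.586 and 0.576 RPKM in WT PBS libraries. It stood at 0.814, 0.942, 1.22 and 1.04 RPKM in untreated dyW and 0.818, 0.604 and 0.487 RPKM in untreated WT libraries. Tbx4 was at or above 0.373 RPKM in every library, with WT PBS replicate 1 and untreated dyW replicate 3 highest. Tbx5, the T-box gene of the forelimb, stood at 0.215, 0.285 and 0.116 RPKM in dyW TD139, 0.346, 0.271 and 0.165 RPKM in dyW PBS, 0.106 and 0.332 RPKM in WT TD139 and 0.0279, 0.286 and 0.185 RPKM in WT PBS libraries. It stood at 0.311, 0.270, 0.489 and 0.392 RPKM in untreated dyW and 0.337, 0.225 and 0.111 RPKM in untreated WT libraries. Tbx5 was lowest of all in WT PBS replicate 1, where Tbx4 was highest. Isl1, an early hindlimb and motor neuron gene, was at 0 in 13 libraries, and its highest value was 0.139 RPKM in WT PBS replicate 1. None of the 3 that could be tested passed in any comparison.

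Another library lay at the low extreme. In dyW TD139 replicate 1, Hoxa13, Hoxc11, Hoxd8, Hoxd9 and Hoxd10 were each the lowest of 18. Hoxd10 stood at 0.0129 RPKM there, against 0.196 and 0.0910 RPKM in the other dyW TD139 libraries, and Pitx1 was also lowest there, at 0.0440 RPKM. The median r of this library with the others was 0.922. The shallowest library, dyW PBS replicate 1, was the highest of 18 for 11 members, all of them numbered 2 to 8. Untreated WT replicates 2 and 3 were the lowest for 7 and 9 members. These ranks are on the RPKM scale, which is not corrected for composition. With TMM-scaled RPKM, dyW PBS replicate 1 stayed highest only for Hoxa2 and Hoxb3. Its Hoxa7, at 6.47, was then below 8.31 in WT TD139 replicate 1. Untreated WT replicates 2 and 3 lost part of their lows, such as Hoxa10 (5.41 in replicate 2) and Hoxa9 (4.12 in replicate 3). The Hox lows of dyW TD139 replicate 1 held.

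The effect of the mutation without treatment was read from 4 dyW against 3 WT libraries. In untreated dyW muscle, 6 of the 8 tested cluster B genes were higher, with a median log2 fold change of 1.13 over the 8, against 0.03 over all tested genes. Of the 29 Hox genes tested, 7 were higher and 2 were lower, while 49.8% of all 14846 tested genes were called, 24.7% higher and 25.1% lower. The count of called Hox genes, 9 of 29, was thus below that background, and the 6 of 8 in cluster B above the 24.7% called higher among all genes. The other 10 members had too few reads. Hox genes were called with edgeR's quasi-likelihood test at an adjusted p (Benjamini-Hochberg over all tested genes) under 0.05.

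Hoxb8, a gene of trunk patterning that is also active in blood-forming cells, was most changed. It stood at 0.347, 0.342, 0.336 and 0.418 RPKM in untreated dyW and 0.0960, 0.0699 and 0.0469 RPKM in untreated WT libraries (log2 fold change 1.81 ± 0.33 (SE), adjusted p = 0.00237). Hoxb2, a hindbrain regulator, stood at 0.575, 0.554, 0.846 and 0.564 RPKM in untreated dyW and 0.207, 0.129 and 0.167 RPKM in untreated WT libraries (log2 fold change 1.36 ± 0.29 (SE), adjusted p = 0.00533). For both genes every dyW library was above every WT library. Hoxb3, its neighbour, stood at 0.504, 0.419, 0.555 and 0.444 RPKM in untreated dyW and 0.159, 0.149 and 0.140 RPKM in untreated WT libraries (log2 fold change 1.14 ± 0.22 (SE), adjusted p = 0.00318). Its antisense partner Hoxb3os, which covers 52.9% of its exon bases, was higher too, by 1.04 ± 0.26 on the log2 scale (SE, edgeR adjusted p = 0.0109). Hoxb4, known for its role in blood stem cells, stood at 0.697, 0.668, 0.767 and 0.572 RPKM in untreated dyW and 0.241, 0.226 and 0.193 RPKM in untreated WT libraries (log2 fold change 1.07 ± 0.23 (SE), adjusted p = 0.00530). The values for Hoxb3 and Hoxb4 did not overlap between genotypes either.

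Hoxb7 varied most among them, at 0.687, 0.862, 1.61 and 1.43 RPKM in untreated dyW and 0.546, 0.273 and 0.160 RPKM in untreated WT libraries (log2 fold change 1.28 ± 0.43 (SE), adjusted p = 0.0364). Hoxb6 stood at 0.413, 0.448, 0.739 and 0.801 RPKM in untreated dyW and 0.215, 0.0938 and 0.252 RPKM in untreated WT libraries (log2 fold change 1.12 ± 0.40 (SE), adjusted p = 0.0445). Neither gene overlapped between genotypes on the RPKM scale. With TMM-scaled RPKM Hoxb7 did overlap, at 0.633 in untreated dyW replicate 1 and 0.637 in untreated WT replicate 1. The call of Hoxb7 was lost without dyW replicate 3 or 4 or WT replicate 2 or 3 (edgeR adjusted p up to 0.115), and that of Hoxb6 without dyW replicate 3 or 4 or WT replicate 1 or 2 (up to 0.136). Hoxb6 was also not called with the sex label as a term (adjusted p = 0.0578), where 8 Hox genes were called. Hoxb5 and Hoxb9 did not pass, with log2 fold changes of 0.58 (edgeR adjusted p = 0.232) and 0.78 (edgeR adjusted p = 0.0789). Summed over cluster B, the libraries held 3.76 to 5.61 RPKM in untreated dyW and 1.18 to 1.87 RPKM in untreated WT.

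**Figure D4:**
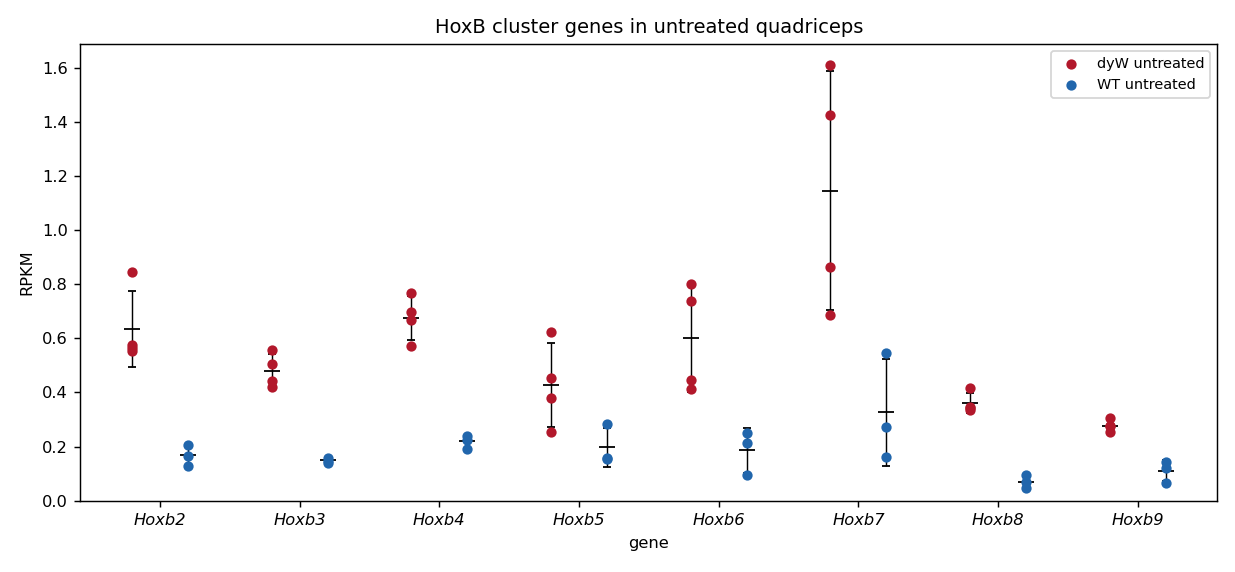
RPKM of the 8 tested cluster B genes in untreated dyW (4 libraries) and untreated WT (3 libraries); points are libraries, and black bars give the mean ± SD. The dyW points lie above the WT points in 7 of the 8 genes, Hoxb5 being the exception. RPKM is not corrected for composition, and limma on log2(RPKM + 0.1) put 77.6% of all tested genes higher in dyW. With TMM-scaled RPKM the genotypes overlapped for Hoxb7 as well.

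Outside cluster B, Hoxa7 was higher (log2 fold change 0.45 ± 0.11 (SE), adjusted p = 0.00869), and Hoxa10 (log2 fold change -0.46 ± 0.13 (SE), adjusted p = 0.0168) and Hoxc10 (log2 fold change -0.55 ± 0.12 (SE), adjusted p = 0.00530) were lower. Hoxa10 was not called without dyW replicate 2 or 3 or WT replicate 1 (edgeR adjusted p 0.0581 to 0.0621). The direction of Hoxa10 and Hoxc10 differed on the RPKM scale. On the RPKM scale Hoxc10 averaged 33.3 ± 1.71 RPKM in dyW (SD, n = 4) and 33.2 ± 1.76 RPKM in WT libraries (SD, n = 3), and limma on log2(RPKM + 0.1) gave it a difference of 0.00652 and Hoxa10 one of 0.0921, neither called. That scale put the median of all tested genes at 0.51, against 0.03 after TMM scaling of the counts, and it called 19 Hox genes, all higher. Relative to the median of all genes, both put Hoxc10 and Hoxa10 below it and the 6 called cluster B genes above it. The share of group 10 in the Hox sum, which needs no such scaling, was 44.1% to 47.1% in dyW and 56.5% to 59.0% in WT libraries, without overlap.

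In the authors' deposited table of this comparison, 8 Hox genes had an FDR under 0.05, all 8 of them called here as well, and all 29 tested members had the same sign in both. Hoxa7 was called here alone. Marker sums of other cells moved with genotype in the same libraries. The 6 macrophage markers, all called higher, summed to 401 to 519 RPKM in dyW and 49.1 to 81.8 RPKM in WT. The 10 fibroblast markers, 4 of them called higher, summed to 1510 to 2598 RPKM in dyW and 769 to 1050 RPKM in WT, and 5 of the 8 myofibre markers were called lower. The part of these cells in the cluster B values was not tested.

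Regulators that act with Hox proteins or on their genes were read in the same untreated comparison. There 49.8% of all tested genes were called, 24.7% higher and 25.1% lower, and no list was tested as a set. Of 8 tested TALE cofactors, which bind DNA with Hox proteins, Meis3 (log2 fold change 1.26), Meis2 (1.49) and Pbx2 (0.53) were higher and 3 were lower, led by Pknox2 (-1.27). Of 14 chromatin regulators of the Hox clusters, 6 were called lower and 0 higher, among them the trithorax-type methyltransferase gene Kmt2a (-1.04) and the Polycomb genes Bmi1 (-0.65) and Suz12 (-0.60), while 25.1% of all genes were lower. On the RPKM scale limma called 3 chromatin regulators higher and 1 lower with either pseudocount, and Bmi1, Suz12 and Kdm6a were not called (values for log2(RPKM + 0.1) of -0.11, -0.06 and -0.56, adjusted p 0.435, 0.724 and 0.0954). On that scale 4 of the TALE cofactors were higher and 1 lower. Of 11 tested limb patterning genes, Shox2 (1.04), Tbx2 (1.06) and Tbx18 (0.92) were among 4 called higher and Tbx15 (-1.0) was the 1 lower. Shox2, a gene of the proximal limb segment, stood at 3.73, 3.62, 4.15 and 3.00 RPKM in untreated dyW and 1.45, 1.21 and 0.964 RPKM in untreated WT libraries. All these calls are edgeR calls over all tested genes.

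In the PBS cohort the genotypes were compared with 3 libraries each. Of 31 Hox genes tested, 0 were called by edgeR in dyW PBS against WT PBS, beside 2.68% of all 15331 tested genes (2.4% higher and 0.28% lower), and 6 had an unadjusted p under 0.05 (DESeq2 called 0). All 6 were lower in dyW PBS and numbered 8 to 13: Hoxd8, Hoxa11, Hoxd10, Hoxc11, Hoxd9 and Hoxa13. Hoxd8 had a log2 fold change -0.77, 95% interval -1.40 to -0.14, and Hoxd9 a log2 fold change -0.98, 95% interval -1.86 to -0.10. Hoxd10 stood at 0.382, 0.255 and 0.111 RPKM in dyW PBS and 0.863, 0.265 and 0.756 RPKM in WT PBS libraries (log2 fold change -1.65, 95% interval -3.10 to -0.20). Hoxa11 stood at 0.228, 0.331 and 0.323 RPKM in dyW PBS and 1.38, 0.259 and 0.545 RPKM in WT PBS libraries (log2 fold change -1.49, 95% interval -2.73 to -0.25). Its difference rested largely on WT PBS replicate 1, without which it was -0.79, with an edgeR adjusted p of 0.457, and the count of Hox genes with an unadjusted p under 0.05 was then 2.

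Cluster B, higher in untreated dyW, had a median log2 fold change of 0.06 here. Its members stood as follows. Hoxb2 stood at 0.588, 0.336 and 0.609 RPKM in dyW TD139, 0.782, 0.675 and 0.536 RPKM in dyW PBS, 0.488 and 0.364 RPKM in WT TD139 and 0.160, 0.727 and 0.328 RPKM in WT PBS libraries. Hoxb3 stood at 0.434, 0.246 and 0.311 RPKM in dyW TD139, 0.680, 0.241 and 0.371 RPKM in dyW PBS, 0.271 and 0.106 RPKM in WT TD139 and 0.332, 0.294 and 0.161 RPKM in WT PBS libraries. Hoxb4 stood at 0.482, 0.361 and 0.515 RPKM in dyW TD139, 0.969, 0.476 and 0.536 RPKM in dyW PBS, 0.524 and 0.385 RPKM in WT TD139 and 0.489, 0.743 and 0.317 RPKM in WT PBS libraries. The WT PBS values overlapped the dyW PBS values for each of the 3. Hoxb6 stood at 0.559, 0.472 and 0.913 RPKM in dyW TD139, 0.942, 0.559 and 0.888 RPKM in dyW PBS, 0.782 and 0.517 RPKM in WT TD139 and 0.532, 0.915 and 0.337 RPKM in WT PBS libraries. Hoxb7 stood at 0.439, 0.493 and 0.703 RPKM in dyW TD139, 0.862, 0.585 and 0.369 RPKM in dyW PBS, 0.479 and 0.365 RPKM in WT TD139 and 0.880, 0.653 and 0.609 RPKM in WT PBS libraries. Hoxb8 stood at 0.222, 0.307 and 0.439 RPKM in dyW TD139, 0.549, 0.333 and 0.356 RPKM in dyW PBS, 0.406 and 0.107 RPKM in WT TD139 and 0.525, 0.158 and 0.222 RPKM in WT PBS libraries. For these as well the genotypes overlapped under PBS.

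Whether the genotype effect itself differed between the vehicle and the untreated cohort was fitted over all 6 groups. Of 31 Hox genes 0 were called by edgeR, beside 1.72% of 15771 genes (1.2% with a larger and 0.526% with a smaller value in the vehicle cohort), with 4 at an unadjusted p under 0.05 and 1 called by DESeq2. Hoxb7 came nearest (log2 fold change -1.82 ± 0.55 (SE), adjusted p = 0.0809), and all 8 tested cluster B genes had a smaller effect in the vehicle cohort, with a median difference of -1.0 on the log2 scale. The change of the genotype effect between cohorts thus did not pass for any cluster B gene.

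TD139 treatment was compared with PBS within each genotype. In dyW muscle 0 of 31 Hox genes were called by edgeR, with 0 at an unadjusted p under 0.05, beside 0% of all genes (583 of 15331 at an unadjusted p under 0.05, and 4 by DESeq2). Over the 10 libraries that went with their sex label, 1 dyW TD139 against 2 dyW PBS libraries with the untreated ones in the same edgeR fit, 0 Hox genes and 0 of 16100 genes were called, with 4 Hox genes at an unadjusted p under 0.05, and the lone TD139 library is assumed to vary like the others. Hoxc10 had a log2 fold change -0.29, 95% interval -0.78 to 0.21, Hoxa9 a log2 fold change -0.31, 95% interval -0.66 to 0.04, and Hoxa7 a log2 fold change -0.53, 95% interval -1.26 to 0.20. Of the 31 tested members 28 had a value below 0, with a median of -0.31, against -0.01 over all genes. The authors' deposited table for this contrast lists 68 genes with an FDR under 0.05, 0 of them Hox genes. In WT muscle, with 2 TD139 against 3 PBS libraries, 0 of 31 Hox genes were called by edgeR and 0 had an unadjusted p under 0.05, beside 0% of all genes (304 at an unadjusted p under 0.05, and 3 by DESeq2). Hoxc10 had a log2 fold change 0.24, 95% interval -0.31 to 0.79 and Hoxb7 a log2 fold change -0.65, 95% interval -1.51 to 0.22. These intervals do not show that TD139 left the Hox genes as they were.

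Under TD139 the Hox genes with the smallest p between genotypes were Hoxd8, Hoxd9 and Hoxd10, and none passed. In dyW TD139 against WT TD139, 0 of 31 Hox genes were called by edgeR, beside 1.04% of all genes (0.757% higher and 0.287% lower), 6 had an unadjusted p under 0.05, and DESeq2 called 3. Hoxd8 had a log2 fold change -1.28, 95% interval -1.97 to -0.59 (edgeR adjusted p = 0.0766), and the values given above do not overlap. Hoxd9 had a log2 fold change -1.50, 95% interval -2.45 to -0.54 (edgeR adjusted p = 0.129). Hoxd10 stood at 0.0129, 0.196 and 0.0910 RPKM in dyW TD139 and 0.423 and 0.435 RPKM in WT TD139 libraries, with an edgeR adjusted p of 0.147. DESeq2's 3 calls were all lower in dyW TD139. Summed over cluster D, the libraries held 2.57 to 6.65 RPKM in dyW TD139 and 8.60 to 10.4 RPKM in WT TD139. Under PBS the ranges overlapped, at 4.66 to 7.64 RPKM in dyW and 6.66 to 11.8 RPKM in WT, where replicate 1 was highest. The untreated libraries held 3.96 to 7.39 RPKM in dyW and 2.77 to 5.12 RPKM in WT. These sums are not corrected for composition. With TMM-scaled RPKM the untreated sums were 3.45 to 6.46 in dyW and 3.23 to 6.89 in WT. Under PBS they then did not overlap, at 4.91 to 7.34 in dyW and 8.53 to 12.6 in WT, and under TD139 they stayed apart. The 2 genotype comparisons, under TD139 and under PBS, share no library but come from 1 fit with a shared estimate of spread. Each had 0 Hox calls.

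The PBS libraries were set against the untreated cohort as the mean over both genotypes. Vehicle, age label and the handling of each cohort cannot be told apart in this contrast. Of 31 Hox genes tested, 7 were higher and 0 lower, beside 13.3% of 15771 genes called, 6.9% higher and 6.44% lower. Hoxd4 was the most changed, at 1.06, 0.786 and 0.740 RPKM in dyW PBS and 0.226, 0.405, 0.300 and 0.489 RPKM in untreated dyW libraries. In WT it stood at 1.53, 0.907 and 0.405 RPKM under PBS and 0.191, 0.179 and 0.109 RPKM untreated (log2 fold change 1.96 ± 0.27 (SE), adjusted p = 9.39e-04). The cohorts did not overlap in either genotype, and under TD139 Hoxd4 stood at 0.491, 0.548 and 0.937 RPKM in dyW and 0.484 and 0.603 RPKM in WT libraries. Of the reads of Hoxd4 in all libraries, 43.8% were unique. Its call held in all 20 alternatives, the fit on unique reads among them.

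Hoxa6 stood at 0.860, 0.419 and 0.806 RPKM in dyW PBS and 0.190, 0.361, 0.169 and 0.180 RPKM in untreated dyW libraries. In WT it stood at 0.568, 0.602 and 0.378 RPKM under PBS and 0.257, 0.120 and 0.481 RPKM untreated (log2 fold change 1.26 ± 0.34 (SE), adjusted p = 0.0238). The cohorts did not overlap in dyW and overlapped in WT, and under TD139 the values were 0.534, 0.707 and 0.432 RPKM in dyW and 0.721 and 0.419 RPKM in WT. Its cluster neighbours Hoxa4 (log2 fold change 1.05 ± 0.18 (SE), adjusted p = 0.00245) and Hoxa5 (log2 fold change 1.12 ± 0.20 (SE), adjusted p = 0.00314) were higher as well, as was Hoxc9 (log2 fold change 0.55 ± 0.13 (SE), adjusted p = 0.0134). Hoxb8 (log2 fold change 1.16 ± 0.33 (SE), adjusted p = 0.0284) and Hoxb6 (log2 fold change 1.11 ± 0.30 (SE), adjusted p = 0.0231) were the 2 members called in both the untreated genotype comparison and this contrast, which share the untreated libraries. Without WT PBS replicate 1, 10 Hox genes were called and Hoxb8 was not among them (edgeR adjusted p = 0.0623). Hoxb8 was also lost without dyW PBS replicate 1 or untreated WT replicate 2 or 3, and Hoxb6 without WT PBS replicate 2 or untreated WT replicate 2. By limma, Hoxb8 was not called on either RPKM scale (adjusted p 0.0811 and 0.132) and Hoxb6 not on log2(RPKM + 1) (adjusted p = 0.0624). Hoxa6 was lost without dyW PBS replicate 3, WT PBS replicate 2 or untreated WT replicate 1 or 2. Without untreated WT replicate 2 the count was 4, and DESeq2 called 12. In dyW alone, PBS against untreated, edgeR called 3 Hox genes higher (Hoxa4, Hoxa6 and Hoxd4), beside 4.97% of all genes (2.65% higher). With the 2 dyW PBS libraries that went with their sex label it called Hoxa4 only (log2 fold change 1.09 ± 0.21 (SE), adjusted p = 0.0421), beside 1.22% of 16100 genes (0.764% higher), and Hoxd4 had a log2 fold change of 1.49 ± 0.34 (SE), adjusted p = 0.0694.

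**Figure D5:**
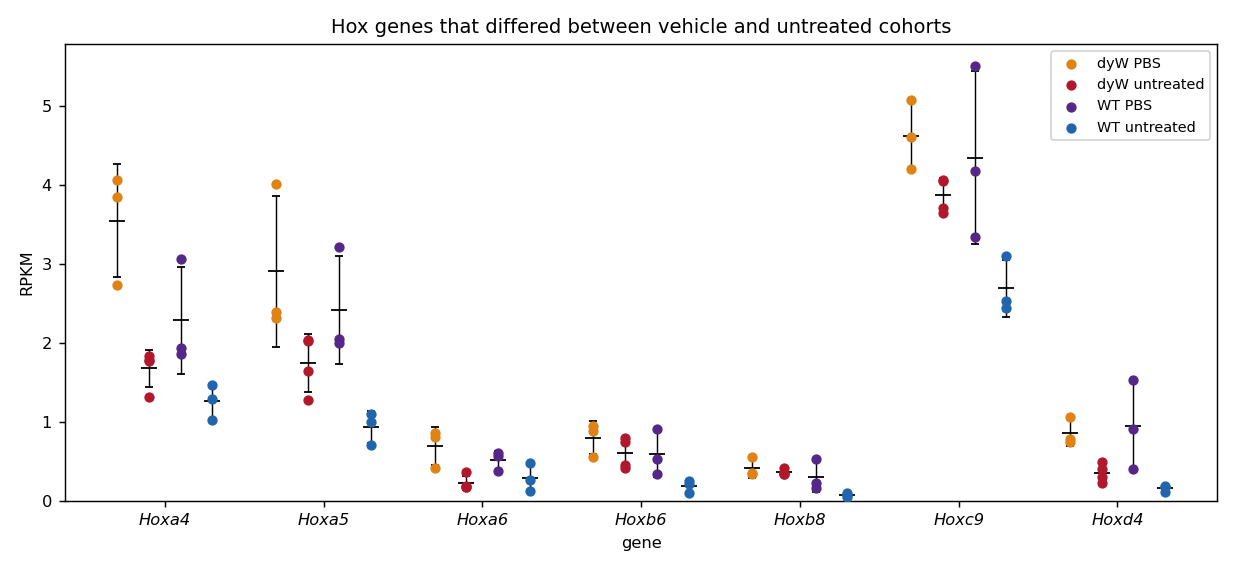
RPKM of the 7 Hox genes called in the contrast of cohorts, for dyW PBS, untreated dyW, WT PBS and untreated WT; points are libraries and black bars the mean ± SD. Hoxd4 and Hoxa4 lie higher under PBS in both genotypes.

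Noncoding genes within the Hox clusters were read in the same contrast. Of 7 tested, 4 were higher in the vehicle cohort and 0 lower: Hoxaas2 (log2 fold change 1.90), Hoxd3os1 (1.37), Hotairm1 (1.08) and Hoxb3os (0.90), all under an edgeR adjusted p of 0.05. Hoxb3os was not called in 12 of 20 alternatives (adjusted p up to 0.136) and Hotairm1 in 9 (up to 0.113), most of them fits without 1 library, while Hoxaas2 and Hoxd3os1 were called in all 20. Hoxd3os1 overlaps 11.8% of the exon bases of Hoxd4 on the other strand. Among markers, all 6 macrophage genes and 3 of 6 adipocyte genes were lower in the vehicle cohort, beside 6.44% of all genes. Of 6 Schwann cell genes 4 were higher, beside 6.9% of all genes. The summed Schwann cell markers overlapped between cohorts in dyW, at 43.5 to 71.8 RPKM under PBS and 49.7 to 103 RPKM untreated. In WT every PBS sum was above the untreated ones (9.07 to 21.5 RPKM). WT PBS replicate 1 held 591 RPKM and its mates at most 48.2 RPKM. Over these 6 genes the difference of genotype effects had a median of -2.99 on the log2 scale, with 0 called. The part of these cells in the Hox values was not tested.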

How the data were processed

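Whole quadriceps RNA of 18 mice was read as 58-base pairs from stranded mRNA libraries, per the labels' protocols. Reads were mapped to mm10, per the submitters' processing notes, and the aligner, the counting tool and its strand setting were not given in the sources used here. Per the file headers, the authors deposited, for each library and gene, counts of exon reads (all and unique), the length of the exons and the RPKM. They also deposited the results of 2 comparisons, where each gene has a log2 fold change and p-values, the FDR among them, used here only where the authors' deposited table is named. RPKM equalled reads per exon length times 1 constant per library, to within a relative 0.00042, so it is not corrected for composition. The span of all 39 Hox genes was the same in the files and in GENCODE M21.

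The deposited counts entered edgeR 4.0.16 under R 4.3.3 (quasi-likelihood F-test, TMM, filterByExpr with a minimum count of 10 and a minimum total of 15, Benjamini-Hochberg adjustment over all tested genes, threshold 0.05). Where no tool is named, adjusted p-values and standard errors are those of edgeR. One fit held the 7 untreated libraries, one the PBS and TD139 cohort as 4 groups, and contrasts between cohorts came from all 18 libraries in 6 groups. Alternatives were DESeq2 1.42.0, RLE scaling, no filter, unique reads, the sex label as a term, limma 3.58.1 on log2(RPKM + 0.1) and log2(RPKM + 1), and leaving out each library. A fit over the 10 libraries whose Xist and Y-linked RNA went with the sex label was added after the data were seen. The test was also checked on simulated counts.

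Full values are given for members with a mean of at least 1 RPKM and for those called in any comparison, and other lists name up to 4 called genes with the smallest p. The members and lists were chosen with earlier results of these data known. Labels do not say whether animals of a group shared a litter, and p-values measure the spread between these animals. Values of 0 and low reads carry counting error only in the limits given.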

Additional observations from a re-analysis of the deposited data

Results flagged for a closer look

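Among 45 measures of the 4 untreated dyW libraries, 5 Hox genes had 1 library far from the other 3, judged by its gap to the nearest library over the group's range, and chance alone marks about 1 in 20 such groups. Hoxa4 stood at 1.32 RPKM in replicate 1, against 1.77 to 1.84 RPKM in the others. Hoxa6 stood at 0.361 RPKM in replicate 2, against 0.169 to 0.190 RPKM. Hoxb2, one of the genes called higher in untreated dyW, stood at 0.846 RPKM in replicate 3, against 0.554 to 0.575 RPKM, and all 4 values exceeded those of untreated WT. Hoxb8 stood at 0.418 RPKM in replicate 4, against 0.336 to 0.347 RPKM. Hoxd3 stood at 0 RPKM in replicate 4, against 0.0159 to 0.0188 RPKM in the others, values that rest on few reads. The rule was applied to RPKM, which is not corrected for composition. With TMM-scaled RPKM the other 3 replicates spread more widely for every flagged gene but Hoxd3. Hoxa4 stood at 1.21 against 1.45 to 1.55, and Hoxa6 at 0.315 against 0.134 to 0.175. Hoxb2 stood at 0.67 against 0.483 to 0.53, and Hoxb8 at 0.365 against 0.266 to 0.32. The rule was not applied on that scale. The groups of the PBS and TD139 cohort held 2 or 3 libraries and were too small for this rule, so WT PBS replicate 1 could not be judged by it.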

How the results depend on the processing

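Limma on log2(RPKM + 0.1) and on log2(RPKM + 1) called 19 and 19 Hox genes in untreated dyW against WT, where edgeR called 9, and turned the sign of Hoxa10 (0.0921 and 0.0754) and Hoxc10 (0.00652 and 0.00635). These settings change the scale and the test together, and the cause was not tested. DESeq2 called 864 genes in dyW PBS against WT PBS, 4 in dyW TD139 against dyW PBS, 3 in WT TD139 against WT PBS, 739 in dyW TD139 against WT TD139 and 1189 for the difference of genotype effects, and it called 3, 1 and 12 Hox genes in dyW TD139 against WT TD139, in that difference and in the contrast of cohorts. The same genotype contrasts gave 952 and 814 genes (PBS), 552 and 296 (TD139) and 75 and 111 (difference) by limma with the smaller and larger pseudocount, and without the low-count filter 320 genes and 1 Hox gene were called under TD139. The cause of these shifts was not tested. Leaving out 1 library gave 5792 to 7713 genes and 6 to 9 Hox genes (untreated), 125 to 601 genes (dyW PBS against WT PBS), 6 to 91 genes (dyW TD139 against WT TD139), 0 to 637 genes and 0 to 1 Hox genes (difference of genotype effects), and 1161 to 2695 genes and 4 to 10 Hox genes (cohorts). Of the values of single named genes under these alternatives, 1502 kept their side of the threshold and sign, 193 lost the call, 4 gained it and 4 changed sign. The median r of WT PBS replicate 1 with the other libraries was 0.875 with a pseudocount of 0.1, still the lowest of 18. No paired analysis was possible because each animal carries its own number and no number is shared between groups. Genes under about 10 reads per library, the 8 to 10 untested members among them, could not be compared at this depth.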

Other observations

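Hoxd13, a gene of the digits picked out after its values were seen, was detected unevenly among dyW libraries. It stood at 0.307 and 0.412 RPKM in untreated dyW replicates 3 and 4, at 0.0251 and 0.0272 RPKM in replicates 1 and 2, and at 0.0226 to 0.0797 RPKM in untreated WT libraries. In dyW PBS libraries it stood at 0.373, 0.177 and 0 RPKM, and in WT PBS libraries at 0, 0.0353 and 0.0102 RPKM. It did not pass the test under PBS (log2 fold change 2.98 ± 1.37 (SE), edgeR adjusted p = 0.334). Untreated dyW replicates 3 and 4 were also those with 236 and 291 RPKM of Myh7, against 0.807 and 21.0 RPKM in replicates 1 and 2, and the part of slow fibres in the Hoxd13 values was not tested.

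The ParaHox and Cdx genes, close relatives that act in gut and tail, gave almost no reads: Cdx2, Cdx4, Gsx1, Gsx2 and Pdx1 were at 0 in all 18 libraries, and Cdx1 reached 0.0139 RPKM. The limb signal gene Shh and the limb regulator gene Hand1 were at 0 throughout as well. Tbx15, a limb and muscle patterning gene, was the most abundant of the limb list, at 42.7 to 77.6 RPKM.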
